A study of Canis lupus familiaris with 4 samples.

Results

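Cytokine signalling genes of a canine lymphoma line and its drug-resistant derivative were examined for captured, methylated DNA. The genes were chosen by symbol alone: IL followed by a digit, CCL, CXCL, CCR or CXCR followed by a number, and names that begin with TNFSF or TNFRSF. Of 21789 genes named in either region list, 100 met this rule. They held 316 of the 123421 regions of CLBL-1 8.0 and 223 of the 82247 regions of CLBL-1. CLBL-1 8.0 is a doxorubicin-resistant line derived from CLBL-1 and kept in 8 µM doxorubicin, an anthracycline that poisons topoisomerase II and is widely used against lymphoma. CLBL-1, the line it was set against, comes from a lymph node with canine diffuse large B-cell lymphoma of stage IV and is labelled as having no chemoresistance. They are also called the resistant and the parental line below. Both lines grew in RPMI medium with 10% fetal bovine serum.

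In MethylCap-seq, fragments of methylated DNA are pulled down by a protein domain that binds methylated CpG, eluted with salt and sequenced. Each line gave 1 low salt and 1 high salt eluate, 4 libraries in all, and each line is reported as a single list that does not separate the eluates. Each condition is thus 1 cell line without replicates, so no difference between the lines has a replicate check and no p-value is given. No read numbers come with the lists, so depth is unknown, and a region missing from a list does not show that the DNA was unmethylated. Intervals are Wilson 95% intervals and cover counting error only, since regions and genes are not replicates. The lists hold DNA regions and no expression values, so the B cell identity of the lines could not be checked against markers, and nothing here measures how much of any gene was made.

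Interleukins and chemokines are secreted signals: interleukins act mostly through paired receptor chains that signal by JAK kinases and STAT factors, and chemokines guide cells through G protein-coupled receptors. Ligands and receptors of the tumour necrosis factor (TNF) superfamily carry survival, costimulation and death signals. B cells depend on several of them, among them CXCR4 and CXCR5 for their position in the lymph node follicle and the BAFF and APRIL receptors for survival. Methylation of a CpG-containing promoter commonly accompanies silence of the gene, while methylation inside gene bodies is common in active genes.

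The longer list of CLBL-1 8.0 held more regions for these genes, to about the same degree as for all genes. A region was listed for 98 of the 100 genes in the resistant line and for 80 in the parental line, and 78 genes had regions in both. In all, 20 genes were listed in the resistant line only, beside a background of 20.3% over all genes. Only CXCL16 and TNFRSF4 were listed in CLBL-1 only, where the background was 2.13%. CLBL-1 8.0 had more regions than CLBL-1 in 55 genes (background 60.1%), the same number in 36 and fewer in 9 (background 9.41%). The median difference was 1 region per gene, as it was over all genes. The ratio of region numbers was 1.42, beside 87053 regions in CLBL-1 8.0 and 56848 in CLBL-1 for all genes.

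Many symbols of the family were not listed in the tables used here. Of 157 protein-coding dog RefSeq symbols that fit the rule, 99 were listed in either line (63.1%, interval 55.3 to 70.2), against a background of 77.4% over all such symbols. Chemokines and interleukins were the sparse groups, with 9 of 29 (31.0%) and 20 of 42 (47.6%) listed. TNF superfamily ligands (8 of 11, 72.7%) and interleukin receptors (31 of 41, 75.6%) were near the background, and 14 of 15 chemokine receptors and 16 of 17 TNF receptors were listed. Symbols without a region included IL2, IL4, IL6, IL10 and IL21, cytokines that regulate lymphocytes, and CXCL8, CXCL10, CXCL13 and the CCL2 to CCL5 genes. Gene length was not taken into account, and a gene filed under another symbol would be missed.

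Promoter regions, taken from the authors' flag, met the 3000 bp upstream of the transcription start in 64 of 64 flagged regions of these genes in the resistant line and 46 of 46 in the parental line. In CLBL-1 8.0, 53 of the 100 genes carried a promoter region (interval 43.3 to 62.5), beside a background of 48.1%. In CLBL-1, 37 did (28.2 to 46.8), beside 39.0%. Both lines shared 34 of these genes, and 44 had regions elsewhere only. Gene body regions were present in 78 genes of the resistant line (background 76.9%) and 62 of the parental line (background 60.3%). All 4 shares lay close to those of all genes.

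**Figure D1:**
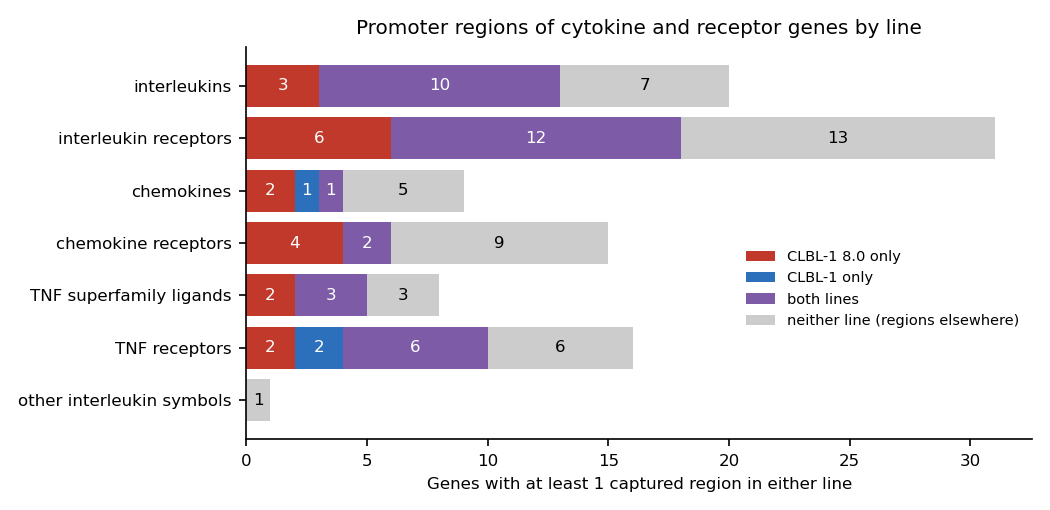
Horizontal bars give, for each gene family, the number of genes whose promoter region was listed in the resistant line only, the parental line only, both lines or neither line, among genes with a region in either line. Interleukin receptors had 6 genes in the resistant line only (19.4%) and none in the parental line only. Chemokine receptors had 4 in the resistant line only (26.7%), and TNF receptors had 2 in each line only (12.5%). Over all genes the shares were 12.6% in the resistant line only and 3.50% in the parental line only.

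By family, as counted in the bars, the shares with a promoter region are read beside the 48.1% of all genes in the resistant line and 39.0% in the parental line. Of 31 interleukin receptors, 18 had one in the resistant line and 12 in the parental line, and of 20 interleukins, 13 did in the resistant line and 10 in the parental line. Of 15 chemokine receptors, 6 did in the resistant line and 2 in the parental line. Of 8 TNF superfamily ligands, 5 did in the resistant line and 3 in the parental line, and of 16 TNF receptors, 8 did in each line. Chemokine receptors had 30 regions in CLBL-1 8.0 and 17 in CLBL-1, a ratio of 1.76 beside 1.53 for all genes. In the resistant line only, 7 of the 15 chemokine receptors were listed (46.7%, 24.8 to 69.9, beside the background of 20.3%), the highest share among the families. The others had 33.3% of chemokines, 20% of interleukins, 12.9% of interleukin receptors, 12.5% of TNF receptors and 0% of TNF superfamily ligands. Of the 7 chemokine receptors, all but CXCR4 had 1 region in CLBL-1 8.0, so a single region set each call. The background is not matched for regions per gene, and the interval does not allow for picking the highest family. TNF receptors had 61 regions in the resistant line and 53 in the parental line, a ratio of 1.15, with more regions in CLBL-1 8.0 in 7 genes and fewer in 4.

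In the resistant line only, 19 genes had a promoter region (interval 12.5 to 27.8), beside a background of 12.6%. In the parental line only, 3 genes did, beside 3.50%. The lists differ in length, and this bears on the contrast. With the CLBL-1 8.0 list reduced to its 82247 regions of highest fold, 17 genes were in the resistant line only (background 9.34%) and 15 in the parental line only (background 10.7%). With regions above the pooled median fold there were 14 in the resistant line only (7.30%) and 6 in the parental line only (6.13%). With regions starting within 1000 bp upstream of the transcription start there were 4 in the resistant line only (5.63%) and 4 in the parental line only (2.56%). The numbers of the lines were thus close at equal list length and equal under the 1000 bp rule, and the resistant line had more above the pooled median fold. The 1000 bp rule takes a region's lower coordinate, which is the downstream end in genes on the minus strand. Promoter regions over the start of such genes, as in IL10RA and IL6R, were thus left out. IL12B counted in the parental line only, since its CLBL-1 8.0 region starts 1004 bp upstream. The equal numbers there do not show that the lines were alike near the start. The setting of equal length removed weak regions, with a fold below 4.23, from the resistant list alone. The close numbers there follow in part from this cut, so they do not show that the lines were alike. Among its 15 genes of the parental line only, all but CXCL16, TNFRSF13B and TNFRSF4 had a promoter region in both full lists. Of the 19 genes, 15 met no region of the parental line at the promoter, beside 81.6% over all such genes, and 10 had no parental region assigned to them. The 3 genes of the parental line likewise met no resistant line region at the promoter, beside 35.9% over all such genes.

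**Figure D2:**
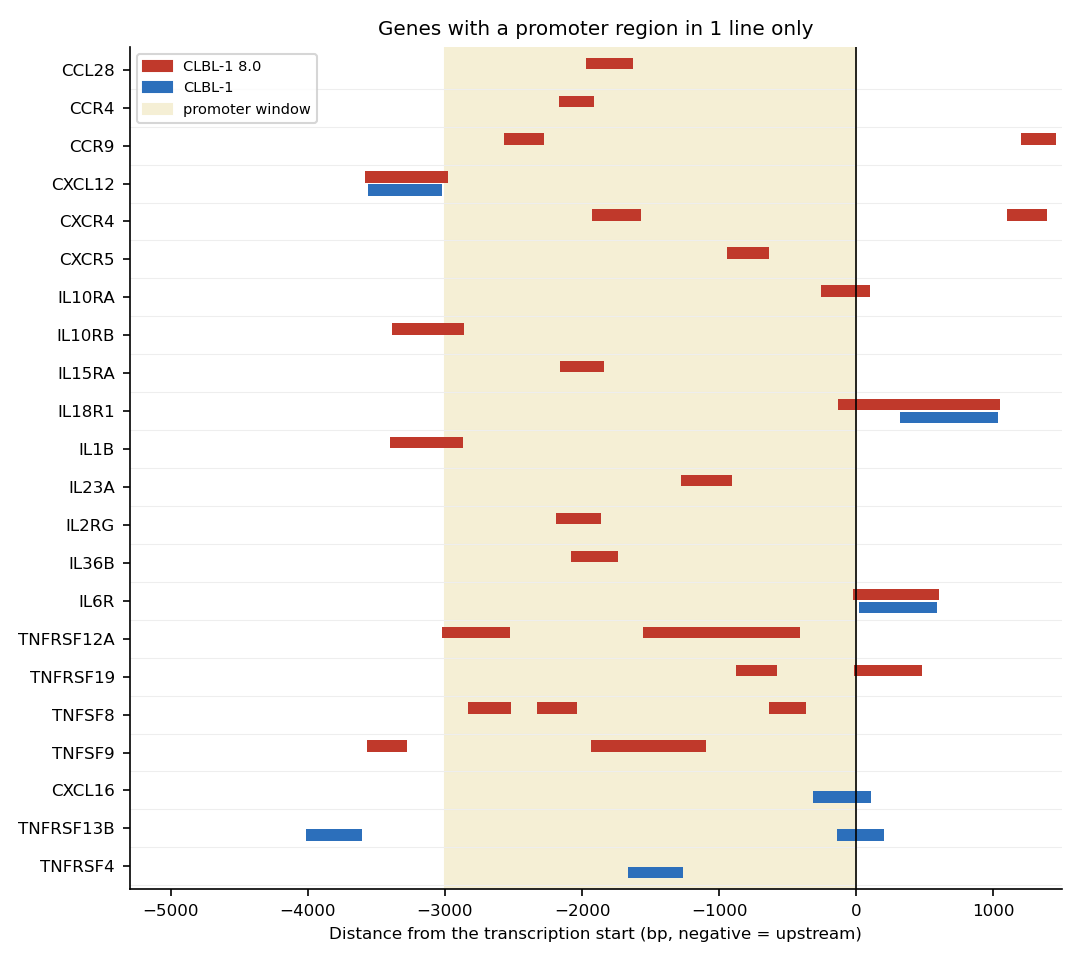
Captured regions assigned to the gene around the transcription start (0 bp, negative values upstream) of the 22 genes with a promoter region in 1 line only, with CLBL-1 8.0 drawn above CLBL-1 in each row and the 3000 bp promoter window shaded. Most bars stand alone, but in CXCL12, IL18R1 and IL6R both lines have overlapping regions, and only that of CLBL-1 8.0 crosses the window's edge. In IL18R1 it is also clearly wider.

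CXCR4, the receptor for CXCL12 that holds B cells in marrow and lymphoid tissue, had 3 regions in CLBL-1 8.0 and none in CLBL-1. The promoter region lay 1567 to 1926 bp upstream on a CpG island shore (chromosome 19, 38879307 to 38879666), with a fold of 8.75, the authors' enrichment ratio within that list, above 87.5% of the list. The background of the fold is not stated, so folds of both lines are given side by side. They were not compared, apart from the common limit at the pooled median. The others lay on shores inside the gene, in the intron with a fold of 5.89 and in the coding sequence with 5.51. None met a CLBL-1 region of any gene. CXCR4 was in the resistant line only when the lists had equal length and above the pooled median fold. Neither setting could have moved it, since CLBL-1 had no CXCR4 region and the fold of 8.75 exceeds both limits. Its promoter region is too far upstream for the 1000 bp rule.

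CXCR5, which guides B cells into follicles, had a region 636 to 942 bp upstream in CLBL-1 8.0 (fold 4.54) and none there in CLBL-1. Toward the gene's end the lines had the same 2 regions, with folds of 4.97 and 2.42 in the resistant line and 6.62 and 3.82 in the parental line. CCR4, a receptor of memory T cells and some lymphomas, had a single region with a fold of 3.63 in CLBL-1 8.0. CCR9, a gut-homing receptor, had 4 regions in CLBL-1 8.0, with a promoter fold of 4.92, and 1 in CLBL-1. The 2 B cell homing receptors CCR6 and CCR7 showed no such difference. CCR6 had 7 regions in each line, every one met by the other list, and CCR7 had 2 in each, all met. Of the homing receptors of B cells listed here, CXCR4 and CXCR5 differed at the promoter and CCR6 and CCR7 had no promoter region in either line.

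Among the chemokine ligands, CCL28, a mucosal chemokine that binds CCR10, had 3 regions in CLBL-1 8.0 with a promoter fold of 5.40 and none in CLBL-1. CXCL12, the ligand of CXCR4, was counted in CLBL-1 8.0 only because of an edge: its region ran from 3582 to 2981 bp upstream in CLBL-1 8.0 and from 3563 to 3020 bp upstream in CLBL-1, so that only the first reached the window. CXCL16 ran the other way. Its sole region, over the transcription start with a fold of 4.45, was listed in CLBL-1 and met nothing in CLBL-1 8.0. CXCL14, a chemokine of epithelia, had a promoter region in both lines over the start, with folds of 10.0 in CLBL-1 8.0 and 11.0 in CLBL-1. CCL17 and CCL22, neighbouring ligands of CCR4, had no promoter region in either line but strong gene body regions, with highest folds of 12.3 for CCL17 and 8.70 for CCL22 in CLBL-1 8.0, and of 17.7 and 14.5 in CLBL-1.

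A promoter region in the resistant line only was listed for 6 of the 31 interleukin receptor genes (19.4%, 9.19 to 36.3). The interval holds the background of 12.6%. IL10RA, the ligand-binding chain of the interleukin 10 receptor, carried one on the start itself (from 254 bp upstream to 98 bp downstream, fold 5.22), in an annotated enhancer. IL10RB, its partner chain, had 2 regions with folds of 4.75 and 4.66 and was not listed in CLBL-1. IL2RG, the common gamma chain shared by receptors for interleukins 2, 4, 7, 9, 15 and 21, had 1 region, 1863 to 2187 bp upstream, with a fold of 5.06, and none in CLBL-1. IL15RA, which presents interleukin 15, had 2 regions, the promoter one with a fold of 6.01, and none in CLBL-1. The remaining 2 genes are edge cases. IL6R, the interleukin 6 receptor, had a region reaching 27 bp upstream of the start in CLBL-1 8.0 (fold 11.1), and in CLBL-1 the matching region began 18 bp inside the gene (fold 17.9). IL18R1 was similar, but its CLBL-1 8.0 region was wider, with 1182 bp against 714 bp in CLBL-1. The wider region reached 133 bp upstream of the start (fold 9.29), and the CLBL-1 region began 319 bp inside the gene (fold 15.3). Only the first 4 are thus places where CLBL-1 8.0 had a captured region and CLBL-1 had none.

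IL4R and IL21R, receptors for T cell help that lie side by side on chromosome 6, were covered along the gene in both lines. IL21R had 10 regions in CLBL-1 8.0 and 7 in CLBL-1, none in the promoter. IL4R had 9 in the resistant line and 7 in the parental line, with a weak promoter region in each line (folds of 2.67 in CLBL-1 8.0 and 2.78 in CLBL-1). Chromosome 6 as a whole had 1.98 times as many regions in CLBL-1 8.0, and the cytokine genes on it had 27 in the resistant line and 15 in the parental line, a ratio of 1.80. The part of the chromosome's ratio in these genes was not tested. The region number of such genes moves with how regions are joined: in IL10RA a CLBL-1 8.0 region of 2189 bp downstream of the gene covered 3 CLBL-1 regions.

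Interleukins with a promoter region in the resistant line only were IL1B, IL36B and IL23A, none of which was listed in the parental line. IL1B, a fever-inducing cytokine of myeloid cells, had its only region 2866 to 3404 bp upstream with a fold of 7.60. IL36B, of the same family, had a fold of 7.28 at 1737 to 2079 bp upstream, and IL23A, a subunit of interleukin 23, had 4.89. IL1B and IL36B lie in 1 cluster on chromosome 17 with IL37, IL36G and IL1RN, and these 5 genes together had 13 regions in CLBL-1 8.0 and 5 in CLBL-1. IL37, an anti-inflammatory relative, had 8 in the resistant line and 3 in the parental line, all in introns. Those of CLBL-1 8.0 lay 22674 to 113732 bp from the IL37 start, several of them beyond the start of IL1B. The IL37 number thus depends on a long gene annotation that reaches past a neighbouring gene. The 5 CLBL-1 regions all met a CLBL-1 8.0 region. The interleukin 1 receptor genes IL18R1, IL1RL2, IL1R1 and IL1R2 on chromosome 10 had 9 in the resistant line and 6 in the parental line.

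Other cytokine genes carried their strongest promoter regions in both lines. IL17RC, a chain of the interleukin 17 receptor, had the highest fold among the promoter regions of these genes in each line, with 13.3 in the resistant line and 18.7 in the parental line, at nearly the same place, 540 to 1093 bp upstream in CLBL-1 8.0 and 558 to 1111 bp upstream in CLBL-1. IL31RA, the interleukin 31 receptor, came next with 13 in the resistant line and 15.0 in the parental line, over the start. IL12B, the p40 subunit shared by interleukins 12 and 23, had 10.6 in the resistant line and 13.5 in the parental line, just upstream of the start. IL11RA had 9.86 in the resistant line and 14 in the parental line, and TNFRSF18, the costimulatory receptor GITR, had 9.86 in the resistant line and 13.7 in the parental line. These genes, chosen for their high folds, had their regions met by the other list in each case.

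**Figure D3:**
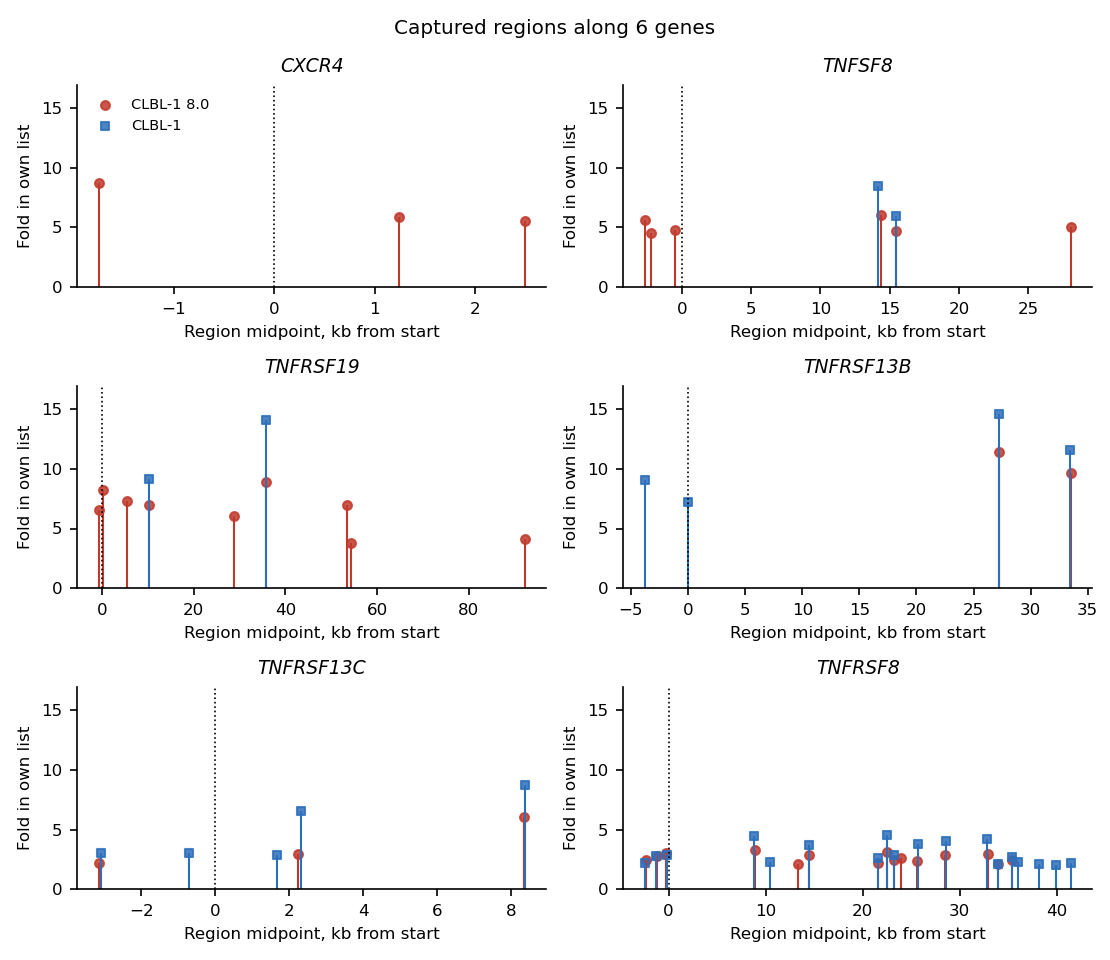
Regions along 6 genes, each drawn at its midpoint (kb from the transcription start, dotted line) with the authors' fold enrichment within its own list as height, circles for CLBL-1 8.0 and squares for CLBL-1. CXCR4, TNFSF8 and TNFRSF19 have regions in the promoter window in CLBL-1 8.0 alone, TNFRSF13B has one in CLBL-1 alone, and the regions of TNFRSF8 are numerous and low in both lines.

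Of the TNF superfamily ligands, TNFSF8 and TNFSF9 had promoter regions in the resistant line only. TNFSF8, the CD30 ligand, had 6 regions in the resistant line and 2 in the parental line. Of the 6, 3 lay in the promoter, ending 364, 2036 and 2515 bp upstream of the start with folds of 4.75, 4.52 and 5.59, and met no CLBL-1 region. Both CLBL-1 regions, in an intron, were met. TNFSF9, the 4-1BB ligand, had 4 regions in the resistant line and 1 in the parental line, with a promoter fold of 4.13. The B cell survival factors had the same numbers of regions in both lists: TNFSF13, or APRIL, had 2 promoter regions in each line, all in annotated enhancers and all met, and TNFSF13B, or BAFF, had 2 regions in each line, none in the promoter.

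The receptors of BAFF and APRIL did not share 1 direction. TNFRSF13B (TACI) had 2 regions in the resistant line and 4 in the parental line. The lines shared the regions at 26788 bp and 32881 bp inside the gene in CLBL-1, with folds of 11.4 and 9.65 in the resistant line and 14.6 and 11.6 in the parental line. The other 2 were in CLBL-1 only: one over the start (chromosome 5, 42448837 to 42449179, fold 7.22, annotated enhancer) and one 3608 to 4013 bp upstream (fold 9.10). They had the highest folds of the 22 CLBL-1 regions of these genes that met nothing in CLBL-1 8.0, whose median was 3.19. TNFRSF13B was in the parental line only under each of the 3 settings above, but these could not have moved it. CLBL-1 8.0 had no region there, and the fold of 7.22 and start 139 bp upstream in CLBL-1 pass each limit. TNFRSF13C (the BAFF receptor) had 3 regions in CLBL-1 8.0 and 5 in CLBL-1, and the 2 unmet ones were weak, with folds of 3.06 and 2.85. TNFRSF17 (BCMA) had 2 regions in CLBL-1 8.0, with folds of 7.22 and 4.43, and none in CLBL-1, neither of them flagged as promoter. The unmet regions of TACI and the BAFF receptor were thus in CLBL-1, and those of BCMA were in CLBL-1 8.0.

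Among the other TNF receptors, TNFRSF19 (TROY), a receptor best known from nerve and skin, had 9 regions in the resistant line and 2 in the parental line. Of the 9, 2 lay at the promoter, one over the start with a fold of 8.19 and one 581 to 877 bp upstream with 6.52. In all, 7 of the 9 met no CLBL-1 region, while both CLBL-1 regions were met. TNFSF8, TNFRSF19 and TNFRSF12A were in the resistant line only under each of the 3 settings above. The settings could not have moved them, since each had promoter regions that pass the limits and CLBL-1 had none assigned to them. Of the 2 TNFRSF12A promoter regions, 1 met a CLBL-1 region assigned to the neighbouring gene CLDN6. TNFRSF4 (OX40) had a single weak region in CLBL-1, with a fold of 2.47, and none in CLBL-1 8.0.

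TNFRSF8 (CD30), an activation marker of lymphocytes and a drug target in lymphoma, was densely covered in both lines, with 15 regions in CLBL-1 8.0 and 18 in CLBL-1. In each list 13 of them met the other. Every region had a low fold, 2.12 to 3.30 in the resistant line and 2.01 to 4.56 in the parental line. Of these regions, 5 of the first and 7 of the others were in CpG islands, 3 of them at the promoter in each line. TNFRSF8 alone gave 5 of the 22 unmet CLBL-1 regions, all with folds at or below 2.31.

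**Figure D4:**
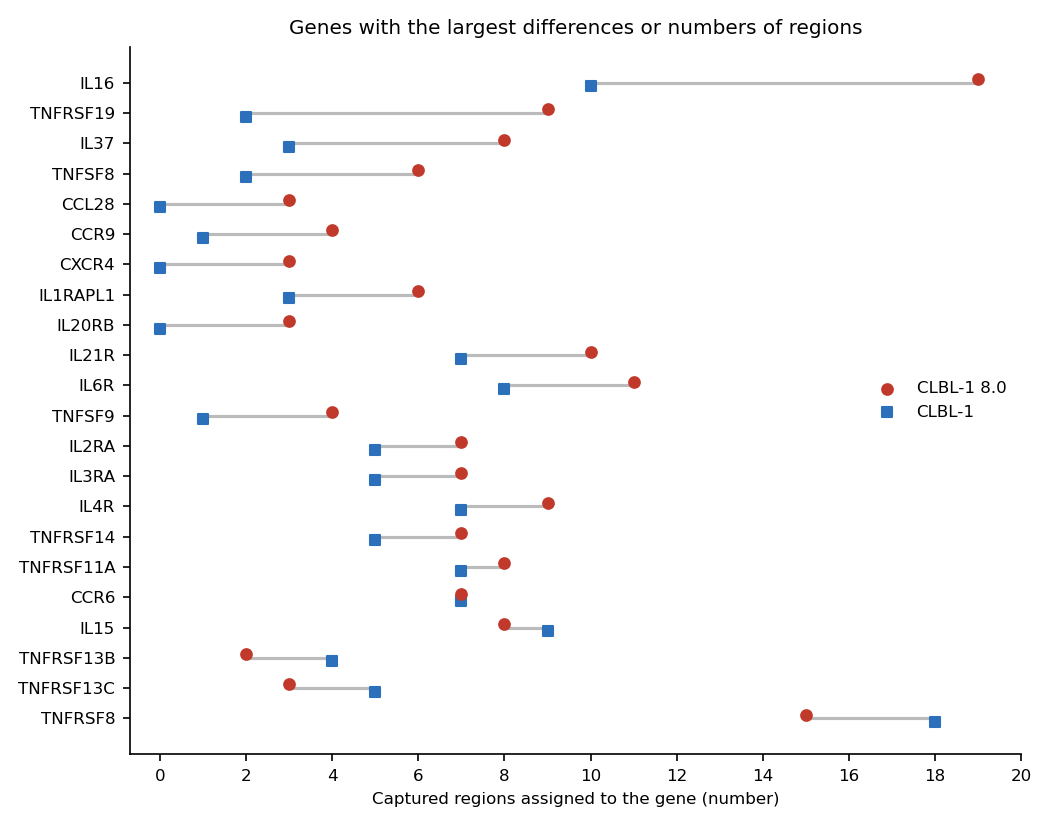
Number of captured regions per gene in CLBL-1 8.0 (circles) and CLBL-1 (squares) for genes with at least 7 regions in a line, at least 3 more in CLBL-1 8.0 or at least 2 fewer. IL16 has 19 regions in the resistant line and 10 in the parental line, and TNFRSF8 has 15 in the resistant line and 18 in the parental line.

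The plot of region numbers per gene shows the ends of this range. IL16, a cytokine precursor and CD4 ligand, differed most, with 19 regions in the resistant line and 10 in the parental line. Of its places, 10 were in the resistant line alone, 1 in the parental line alone and 9 in both, and its promoter region, with a fold of 3.04 in the resistant line and 4.48 in the parental line, was shared. IL15, with 8 in the resistant line and 9 in the parental line, and IL6R, with 11 in the resistant line and 8 in the parental line, were also covered densely. IL1RAPL1 had 6 regions in CLBL-1 8.0 and 3 in CLBL-1, and IL20RB, a receptor chain for interleukins 20 and 24, had 3 in the resistant line and none in the parental line. At the other end, CCL22, CXCL16, IL15, IL17C, IL17RB and TNFRSF4 each had 1 region fewer in CLBL-1 8.0. In CCL22, 1 region of the resistant line met both regions of the parental line.

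Joined where they overlapped, the regions of both lists formed 336 separate places in these genes. Both lines had a region at 200 of them (59.5%), CLBL-1 8.0 alone at 114 (33.9%) and CLBL-1 alone at 22 (6.55%). Of the 22, 12 were in TNF receptors, where 16.2% of places were in CLBL-1 alone, against 3.36% in interleukin receptors. TNFRSF8 gave 5 of the 12, and TNFRSF13B and TNFRSF13C gave 2 each, so the share rests largely on these genes. No share by place over all genes is given here. Places in CLBL-1 8.0 alone occurred in 58 genes and places in CLBL-1 alone in 15, of which 11 had both kinds. By region, 202 of 316 in the resistant line overlapped the parental list (63.9%, interval 58.5 to 69.0, against 60.4% for all genes). In the parental line, 201 of 223 overlapped the resistant list (90.1%, 85.5 to 93.4, against 91.1% for all genes). The 114 unmet regions of CLBL-1 8.0 were short, with a median of 325 bp and a fold of 4.61, against 577 bp and 5.07 for those that were met. Unmet regions of all genes in that list were like them, with 315 bp and 4.75.

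The regions of cytokine and receptor genes differed from those of all genes in some features of where they lay. Gene length was not taken into account here either. CpG islands held 17 regions in CLBL-1 8.0 (5.38%, 3.39 to 8.45, against 10.6% for all genes) and 16 in CLBL-1 (7.17%, 4.46 to 11.3, against 14.7%). Promoter regions made up 20.3% of the regions in CLBL-1 8.0 (16.2 to 25, against 14.3%) and 20.6% in CLBL-1 (15.8 to 26.4, against 17.6%). Annotated enhancers held 35 regions in CLBL-1 8.0 (11.1%, 8.07 to 15, against 5.52%) and 25 in CLBL-1 (11.2%, 7.71 to 16.0, against 5.55%). Among promoter regions, 32 of 64 in CLBL-1 8.0 were outside islands and shores (50%, 38.1 to 61.9), against 29.6% of all promoter regions, and 20 of 46 in CLBL-1 (43.5%, 30.2 to 57.8), against 22.0%. Over all classes the share outside islands and shores was 64.9% in CLBL-1 8.0 (59.5 to 69.9, against 61.3% for all genes). In CLBL-1 it was 56.1% (49.5 to 62.4, against 44.6%). The intervals hold the background for this share in CLBL-1 8.0 and for the promoter share in CLBL-1. The island regions were also concentrated: TNFRSF8, IL3RA, TNFRSF1B and IL15 held 13 of the 17 in CLBL-1 8.0 and 13 of the 16 in CLBL-1. The enhancer regions were spread over 21 genes in CLBL-1 8.0 and 15 in CLBL-1, with IL4R, IL10RA, IL16 and TNFRSF8 among them in each.

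**Figure D5:**
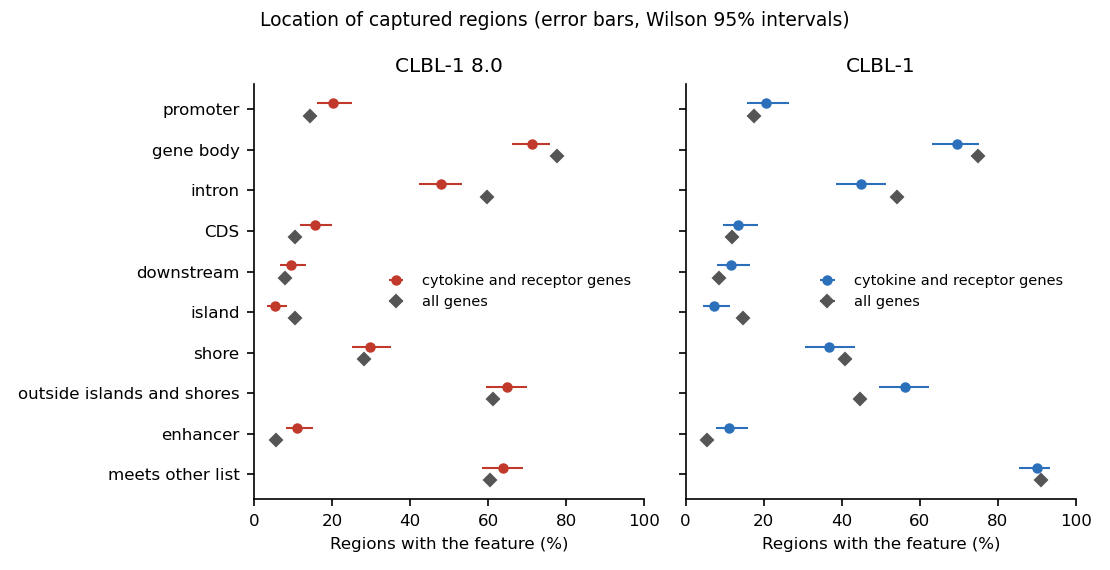
Percent of regions with each location or feature, for cytokine and receptor genes (circles) and all genes (diamonds), in CLBL-1 8.0 (left) and CLBL-1 (right), with Wilson 95% intervals. In both lines islands are fewer and annotated enhancers more frequent among cytokine and receptor genes, with 11.1% of regions in enhancers against 5.52% of all in the resistant line, and 11.2% against 5.55% in the parental line.

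Lists of pathway genes were described by the same counts. The list of cytokine genes with roles in B cells had 21 of 31 genes in the tables, with 99 regions in the resistant line and 83 in the parental line. Its symbols all fit the rule above, so these 21 are part of the 100 genes and not a separate set. Of these, 11 had more regions in CLBL-1 8.0 (52.4%, background 60.1%) and 3 fewer (14.3%, background 9.41%). A promoter region was in the resistant line only for 7 (33.3%, 17.2 to 54.6, background 12.6%) and in the parental line only for 1, TNFRSF13B (4.76%, background 3.50%). The 7 were already counted above, and the list was chosen with earlier results known, so this share is no separate result. Of the 7, CXCL12 and IL6R are the edge cases above. Of the other genes of the list, TNFRSF1A, a TNF receptor, had a region in the 3'UTR in each line, and TNFRSF1B, the other TNF receptor, had 4 in each line. TNFRSF14 (HVEM) had 7 regions in the resistant line and 5 in the parental line, and IL13RA1, a chain of the interleukin 13 receptor, had 2 in the resistant line and 1 in the parental line. TNFRSF1B, TNFRSF14 and IL13RA1 had a promoter region in both lines. The JAK, STAT and SOCS list, the signal carriers and feedback inhibitors of interleukin receptors, had 21 of 23 genes, with 96 regions in the resistant line and 61 in the parental line. More regions were listed in the resistant line for 14 of them (66.7%) and fewer for 2 (9.52%), near the backgrounds of 60.1% and 9.41%. JAK2, a kinase of many cytokine receptors, had 11 regions in CLBL-1 8.0 and 1 in CLBL-1, with a promoter region of fold 6.33 in CLBL-1 8.0. STAT3, which carries interleukin 6 and 10 signals, had 6 regions in the resistant line and 1 in the parental line, all inside the gene. STAT2, SOCS4 and SOCS7 also had a promoter region in the resistant line only, with folds of 5.70, 5.70 and 5.38. With JAK2 these were 4 of the 21 genes (19%, 7.67 to 40), an interval that holds the background of 12.6%. In the parental line only, 1 gene had one (4.76%, background 3.50%). SOCS3, an inhibitor of interleukin 6 signalling, had an island region with a fold of 11.3 flagged as promoter in the parental line only, but a CLBL-1 8.0 region of the same gene met it.

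The receptor adaptors had 14 of 16 genes in the tables, with 54 regions in CLBL-1 8.0 and 39 in CLBL-1. More regions were in CLBL-1 8.0 for 7 genes (50%, background 60.1%) and fewer for 3 (21.4%, background 9.41%). IRAK1 (fold 2.29) and SIGIRR (3.05) had a promoter region in the parental line only (14.3%, 4.01 to 39.9, background 3.50%). None had one in the resistant line only (0%, 0 to 21.5, background 12.6%). Other cytokines and receptors had 42 of 52 genes, with 156 regions in the resistant line and 99 in the parental line, 31 genes with more in CLBL-1 8.0 (73.8%, background 60.1%) and 3 with fewer (7.14%, background 9.41%). Of the 42, 9 had a promoter region in the resistant line only (21.4%, 11.7 to 35.9, background 12.6%). They were, with their folds, CD27 (4.61) and its ligand CD70 (3.38), a costimulatory pair of B and T cells, the death receptor FAS (2.68), the fractalkine receptor CX3CR1 (4.71), the chemokine scavenger ACKR2 (5.36), PRLR (5.59), CSF3R (3.94), CNTFR (4.88) and EBI3 (2.13), of which CNTFR alone met a parental region, one assigned to another gene. In the parental line only, 2 of the 42 had one (4.76%, 1.32 to 15.8, background 3.50%). LEPR had 1 such region (9.50), and ACKR1 had 2 (3.09 and 2.62), the first of which met a CLBL-1 8.0 region of the same gene. The 4 lists were chosen with earlier results of these data known, and each had a median difference between 0.5 and 1 region per gene, beside 1 over all genes.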

How the data were processed

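MethylCap-seq regions were taken from 1 deposited table for each of the 2 lines. Per the submitters' processing notes, BWA and MACS2 were used with the CanFam3.1 build. Their versions and settings are not given in the sources used here. Fold here is the authors' linear ratio per region, per the file headers, and its background is not stated there. Distances to the transcription start are deposited by the authors as signed base pairs from the region start. Coordinates are as the tables give them, with counting from 0 or 1 not stated.

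Regions were said to meet from 1 shared bp on. Overlap counting was tested on simulated regions. Backgrounds are shares of all 21789 genes in either table. RefSeq names come from the dog assembly UU_Cfam_GSD_1.0, used for names only. No sequence is printed, since no genome of the build was used here. Tools were Python 3.11.15, numpy 2.4.6, pandas 2.3.3, statsmodels 0.14.6 and matplotlib 3.10.9.

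The members and lists were chosen with earlier results of these data known. Genes were named when they had a promoter region in exactly 1 line, were among the 5 highest promoter folds or region numbers in a list or the 5 largest differences in either direction (ties kept), belonged to the B cell list, or were pathway genes with a promoter region in 1 line. Others named (CCL17, IL36G, IL1RN, IL1RL2, IL1R1, IL1R2, IL3RA and STAT3) were chosen after their values were seen. Results for 1 gene are not reported here.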

Additional observations from a re-analysis of the deposited data

How the results depend on the processing

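Of 54 values recomputed under another setting, 42 stayed within 1.5 times the reported count or within the interval of the reported share, and 12 moved. The 1000 bp rule takes a region's lower coordinate, with the limit for minus strand genes given above. Under it, genes with a promoter region numbered 20 in CLBL-1 8.0 and 20 in CLBL-1, and 4 were in CLBL-1 8.0 only. Above the pooled median fold of 5.28, they numbered 30 in CLBL-1 8.0 and 22 in CLBL-1, with 6 in CLBL-1 only, the regions numbered 135 in CLBL-1 8.0 and 126 in CLBL-1, and 70.6% of the parental line's regions met the resistant list. With lists of equal length, which keeps CLBL-1 8.0 regions with a fold of at least 4.23, CLBL-1 8.0 had 193 regions, 15 genes were in CLBL-1 only, and 59.2% of the CLBL-1 regions met one of CLBL-1 8.0. Both fold limits remove regions by construction. Counting promoter regions met by the other list in both lines, leaving out IL1RAPL1 and IL1RAPL2, leaving out chromosomes 6, 12, 14 and 27, asking for 50% in common, and, chosen after seeing the data, counting any region in the promoter window moved no value. No paired analysis was possible because each line is a single combined list without replicates. Read depth, the eluates and the background of the fold limit what the lists can show.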

Other observations

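In the interleukin 1 cluster of chromosome 17, all regions between the outermost transcription starts, whatever their gene, numbered 13 in CLBL-1 8.0 and 4 in CLBL-1, since regions beyond the outermost starts are not counted. In the interleukin 1 receptor cluster of chromosome 10 they numbered 18 in CLBL-1 8.0 and 9 in CLBL-1. Regions assigned to no gene made up 10 of the 18 in CLBL-1 8.0 and 5 of the 9 in CLBL-1, and in each line 4 of them met the other list.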
